A study of Mus musculus with 6 samples.

Results

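Of the 35869 gene symbols measured in these mouse leukaemia cells, 17 were clearly expressed in control (WT) cells and lower in every knockout (KO) library. They were chosen on the measured values, as symbols with a WT mean of at least 10 TPM whose highest KO value was at most 0.8 times the lowest WT value. TPM, a relative transcript level, corrects reads for transcript length and scales each library to a common total. The WT threshold left 8011 symbols, and 23 of these, or 0.287%, met both thresholds. Chaf1b, Irf8, Mir6537, Snord57, Snord34 and Snora3 were then left out by the rule, which drops 4 named genes and 11 symbol prefixes of other gene groups. Because the KO and WT values chose the 17 genes, their falls are given here as a description with no test.

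The cells were mouse acute myeloid leukaemia cells transformed with MLL-AF9, an oncogenic fusion delivered by retrovirus, and grown with SCF, IL6 and IL3. The 3 KO libraries came from cells whose floxed Chaf1b alleles were recombined by CreERT2 during 48 hours with β-estradiol, given as the inducer. The 3 WT libraries came from cells that carried these floxed alleles and CreERT2 too but received ethanol, the vehicle, so WT here means not induced. The study used clones, and how many clones the libraries stand for is not stated in the labels. Chaf1b encodes a subunit of CAF-1, the complex that deposits newly made histones behind the replication fork. All KO and no WT cells received the inducer, so its part and that of the deletion cannot be told apart. Chaf1b itself was at 17.7, 14.4 and 14.2 TPM in KO replicates 1 to 3, against 48.6, 49.0 and 50.6 TPM in WT replicates 1 to 3, with no overlap, as the labels have it.

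The libraries did not stand at equal distances from one another. On log2(TPM + 1), KO replicates 2 and 3 correlated at 0.998 over the tested genes and KO replicate 1 with KO replicate 2 at 0.991, while WT replicates 2 and 3 correlated at 0.998 and WT replicate 1 with WT replicate 2 at 0.984. KO replicate 1 correlated with WT replicates 2 and 3 at 0.984 and 0.986. Markers fitted the labelled cell type: 14 of 15 genes of myeloid leukaemia cells and progenitors were at 10 TPM or more in all 6 libraries. The 15 markers summed to between 11007 and 14383 TPM in KO and between 7561 and 8096 TPM in WT, most of it from granule genes. The granule gene Elane was between 2601 and 3533 TPM in KO and between 1152 and 1562 TPM in WT. The granule gene Mpo was between 1018 and 2311 TPM in KO and between 19.4 and 127.6 TPM in WT. Ctsg, Prtn3, Cebpa, Kit and Meis1 of this list also had every KO value above every WT value. So did 15.1% of all symbols with a WT mean of at least 10 TPM. Further markers of the list did not rise. Hoxa9 was between 165.6 and 186.7 TPM in KO and between 203 and 218.8 TPM in WT. Hoxa10 was between 160.2 and 176.5 TPM in KO and between 188.5 and 197.8 TPM in WT, and the groups overlapped for Ptprc and Spi1. Markers of T cells, B cells and epithelial cells were below 1 TPM in all 6 libraries. Of the 4 fibroblast and endothelial markers, 1 was at 10 TPM or more in all 6 libraries. The 3 megakaryocyte markers summed to between 17.3 and 41.3 TPM in KO and between 4.1 and 9.7 TPM in WT, with Itga2b, Gp9 and Pf4 as the list. Pf4 was at 11.3, 28.8 and 23.0 TPM in KO replicates 1 to 3 and at 0.3, 0.1 and 0.3 TPM in WT replicates 1 to 3. Of erythroid genes, the globin gene Hba-a1 was at 7.6, 12.2 and 10.9 TPM in KO replicates 1 to 3 and at 8.9, 5.5 and 3.5 TPM in WT replicates 1 to 3, and Hbb-bs was below 1 TPM in all 6 libraries. The part of any of these markers or cell types in the falls below was not tested. In bulk RNA, fewer cells that express a gene and less RNA per cell cannot be told apart.

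Cd244, F2rl2 and Angpt1 encode proteins of the cell surface or secreted ligands, through which blood cells read neighbouring cells, clotting proteases and vessel-forming signals. Noc2l and Ccdc86 encode nucleolar proteins, of the compartment where ribosomal subunits are assembled, and Ipo4 an importin, which carries cargo through nuclear pores. Gss, Steap3 and Cyp20a1 are enzymes, Wdr34 is part of a microtubule motor, Zxdb is a zinc finger protein, and Tmem109 is a membrane protein. In all, 13 of the 17 are protein coding, 2 are long noncoding RNAs, 1 is a transcribed pseudogene, and LOC102632778 has no entry in the annotation used.

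Promoter stretches are shown for the gene with the lowest KO mean relative to WT over all libraries (Cd244), the gene with the highest level (Noc2l) and the gene with the smallest fall (Cyp20a1). Each is the 120 bases before a RefSeq transcription start on the plus strand of GRCm38.p6, the assembly that mm10 names, written in the direction of transcription. Capitals mark matches to CACGTG, the E-box bound by basic helix-loop-helix factors, and to GGGCGG or its reverse complement CCGCCC, the GC box bound by Sp-family factors. The stretches are chr1:171559073-171559192 for Cd244, chr4:156235890-156236009 for Noc2l and chr1:60343180-60343299 for Cyp20a1. Those of Cd244 and Noc2l lie inside the gene spans given below, downstream of where these annotated spans begin.
Cd244: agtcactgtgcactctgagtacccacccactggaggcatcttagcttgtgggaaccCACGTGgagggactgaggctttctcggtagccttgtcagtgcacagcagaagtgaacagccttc
Noc2l: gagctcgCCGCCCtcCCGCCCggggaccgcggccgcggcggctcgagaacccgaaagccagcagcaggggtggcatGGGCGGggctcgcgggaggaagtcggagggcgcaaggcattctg
Cyp20a1: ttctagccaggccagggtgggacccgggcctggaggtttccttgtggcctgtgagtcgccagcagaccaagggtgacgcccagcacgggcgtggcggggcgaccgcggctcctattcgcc

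The Cd244 stretch holds 1 E-box, whose first base lies 64 bases before the transcription start used here. The Noc2l stretch holds 3 GC boxes and no E-box, and the Cyp20a1 stretch holds neither motif. RefSeq promoters of 300 bases, 250 before the start and 50 after it, were on hand for 12 of the 17 genes, 17 promoters in all. An E-box on either strand was in 3 of these 17 promoters (17.6%), against 11.1% of the 7238 promoters of genes with a WT mean of at least 10 TPM and 7.15% of all 32851 promoters. Only the Cd244 match lies before the start: with the 250 upstream bases alone the share was 5.88%, against 9.08% of promoters of the expressed genes and 6.02% of all promoters, so it lay above both backgrounds in the longer window and below them in the shorter one. The GC box was in 7 of the 17 promoters (41.2%), against 63.9% of promoters of the expressed genes and 35.7% of all promoters. These 7 promoters belong to 5 of the 12 genes, and Noc2l counts with 2 promoters that overlap almost fully. The C/EBP-ATF response element, searched as TGATGNAA on both strands, was in 0 of the 17, against 2.27% of promoters of the expressed genes. These matches are letters in a window and show nothing of what binds there.

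Over all libraries the surface and secreted proteins had the lowest KO means relative to WT among the protein-coding genes, but WT replicate 1 set much of the WT level of Cd244 and F2rl2. With replicates 2 and 3 of each group alone that order was lost: Wdr34 stood at 48.2% and Gss at 49.2% of WT, below Cd244 at 49.7% and F2rl2 at 57.8%. Cd244 (mm10 chromosome 1, 171558718 to 171585316, plus strand), which encodes the receptor 2B4 for CD48 on leukocytes, was at 22.9, 14.8 and 14.2 TPM in KO replicates 1 to 3, against 51.9, 29.3 and 29.0 TPM in WT replicates 1 to 3. The groups did not overlap, and WT replicate 1 stood at 1.78 times the mean of the other WT libraries. KO cells averaged 17.3 ± 4.86 TPM, 47.1% of the 36.7 ± 13.1 TPM in WT cells (SD, n = 3 each), the smallest share among the 17 genes over all libraries. With replicates 2 and 3 alone Gm32131 was lowest, at 39.0%. The span of Cd244 overlaps that of Gm35200 on the opposite strand, which was at 1.43 ± 0.40 TPM in KO cells and 1.13 ± 0.12 TPM in WT cells (SD, n = 3 each). The mRNA of the 2B4 ligand, Cd48, was at 81.4 ± 0.21 TPM in KO cells and 91.6 ± 7.85 TPM in WT cells (SD, n = 3 each). Cd48 was not called by limma (adjusted p = 0.13) and was picked as the partner of Cd244 after its values were seen.

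F2rl2 (chromosome 13, 95696920 to 95702768, plus strand) encodes the thrombin receptor PAR3, which helps thrombin cut a second receptor, PAR4, on mouse platelets. It was at 36.4, 30.9 and 29.7 TPM in KO replicates 1 to 3, against 97.0, 55.4 and 49.5 TPM in WT replicates 1 to 3. Again WT replicate 1 was the outlying library, at 1.85 times the mean of the other WT libraries. The KO mean was 48.0% of the WT mean over all libraries and 57.8% with replicates 2 and 3 of each group. F2rl2 lies within the span of Iqgap2, a scaffold gene on the opposite strand, which was called higher in KO (15.8 ± 1.96 TPM, against 10.3 ± 0.25 TPM in WT, SD, n = 3 each; limma adjusted p = 0.016). F2rl3, which encodes PAR4, was called higher too, at 11.7 ± 1.22 TPM in KO cells and 8.57 ± 0.25 TPM in WT cells (SD, n = 3 each; limma adjusted p = 0.029). Both genes were picked for their relation to F2rl2 after their values were seen.

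Angpt1 (chromosome 15, 42424667 to 42676977) encodes angiopoietin 1, the secreted ligand of the receptor Tie2. It was at 7.2, 5.8 and 5.9 TPM in KO replicates 1 to 3, against 10.2, 14.4 and 11.8 TPM in WT replicates 1 to 3. Here WT replicate 1 was the lowest control, unlike in the pair above, and the KO mean was 51.9% of the WT mean. Without replicate 1 of either group the share was 44.7%.

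**Figure D1:**
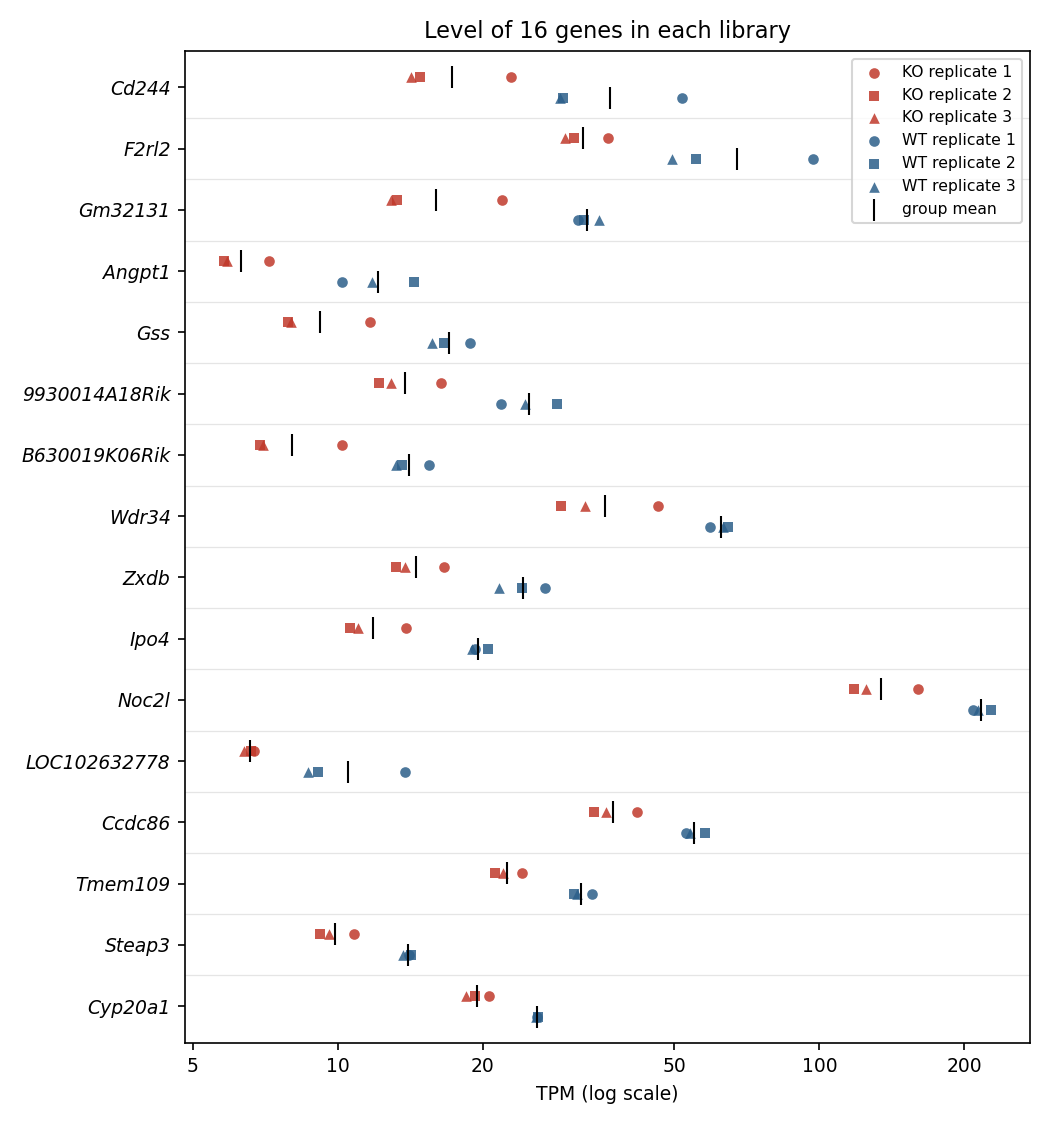
TPM on a log scale (horizontal) of 16 of the 17 genes (rows, ordered by KO mean over WT mean) in each KO library (red, upper points) and each WT library (blue, lower points), with a bar at each group mean. KO and WT points do not overlap in any row; KO replicate 1 is the KO point closest to WT throughout, and WT replicate 1 lies far above the other WT points in Cd244, F2rl2 and LOC102632778.

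The nucleolar and transport genes had tight WT values, so their falls did not hang on a single control. Noc2l (chromosome 4, 156234655 to 156247616, plus strand), a nucleolar factor of large-subunit assembly that also inhibits histone acetyltransferases, was the most abundant of the 17. It was at 160.4, 117.9 and 125.1 TPM in KO replicates 1 to 3, against 208.3, 227.5 and 213.6 TPM in WT replicates 1 to 3. KO cells averaged 134 ± 22.7 TPM, 62.1% of the 216 ± 9.92 TPM in WT cells (SD, n = 3 each). Its span overlaps those of Klhl17, which was not called (29.6 ± 0.78 TPM in KO cells and 26.5 ± 3.40 TPM in WT cells, SD, n = 3 each; limma adjusted p = 0.26), and Samd11, which was called lower (3.87 ± 0.55 TPM in KO cells and 5.93 ± 0.45 TPM in WT cells, SD, n = 3 each; limma adjusted p = 0.026). Use of strand in the read counting was not given in the labels or notes, so reads of overlapping genes may not be separated here or for any other overlap. Further annotated overlaps are Noc2l with Gm52691, Gss with Gssos2, Gm32131 with Nxpe1-ps and Angpt1 with Gm41313.

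Ccdc86 (chromosome 19, 10941481 to 10949266, minus strand) encodes another nucleolar protein. It was at 41.8, 34.1 and 36.0 TPM in KO replicates 1 to 3, against 52.8, 57.9 and 53.9 TPM in WT replicates 1 to 3, and its KO mean was 68.0% of the WT mean. The overlapping gene Ptgdr2 stayed at or under 1 TPM in all 6 libraries. Tmem109 (chromosome 19, 10870657 to 10881743, minus strand), which encodes a protein of the endoplasmic reticulum and nuclear membranes, is the nearest other gene of the set, 59.7 kb away. It was at 24.1, 21.2 and 22.0 TPM in KO replicates 1 to 3, against 33.8, 31.0 and 31.4 TPM in WT replicates 1 to 3, or 70.0% of WT by the means. Of the genes annotated between these neighbours, the splicing factor gene Prpf19 was not called (44.6 ± 1.55 TPM in KO cells and 48.9 ± 2.55 TPM in WT cells, SD, n = 3 each; limma adjusted p = 0.15), and Zp1 was listed at 0 in all 6 libraries.

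Ipo4 (chromosome 14, 55625400 to 55635868, minus strand) encodes importin 4, which carries histones H3 and H4 into the nucleus. It was at 13.9, 10.6 and 11.0 TPM in KO replicates 1 to 3, against 19.3, 20.5 and 19.0 TPM in WT replicates 1 to 3. The WT values lie close together, and the KO mean was 60.4% of the WT mean.

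Among the enzymes, Gss had the deepest fall. Gss (chromosome 2, 155563181 to 155592810, minus strand) encodes glutathione synthetase, which makes the last step of glutathione synthesis, and was at 11.7, 7.9 and 8.0 TPM in KO replicates 1 to 3, against 18.8, 16.6 and 15.7 TPM in WT replicates 1 to 3. The KO mean was 54.0% of the WT mean, and 49.2% without replicate 1 of either group. Genes of the enzyme before it in the pathway and of glutathione reductase, picked after their values were seen, were not called by limma. Gclc, the catalytic subunit of glutamate-cysteine ligase, was at 31.3 ± 2.82 TPM in KO cells and 26.2 ± 2.95 TPM in WT cells (limma adjusted p = 0.13). Gclm, its modifier subunit, was at 263 ± 29.2 TPM in KO cells and 212 ± 12.3 TPM in WT cells (limma adjusted p = 0.063). Gsr, glutathione reductase, was at 902 ± 125 TPM in KO cells and 675 ± 52.5 TPM in WT cells (limma adjusted p = 0.051, SD, n = 3 each throughout).

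Steap3 (chromosome 1, 120226414 to 120271081, minus strand) encodes the endosomal reductase that turns transferrin-borne ferric iron into ferrous iron. It was at 10.8, 9.2 and 9.6 TPM in KO replicates 1 to 3, against 14.1, 14.2 and 13.7 TPM in WT replicates 1 to 3, or 70.5% of WT by the means. Cyp20a1 (chromosome 1, 60343300 to 60388060, plus strand), a cytochrome P450 with no established substrate, had the smallest fall over all libraries and the tightest controls. It was at 20.6, 19.3 and 18.5 TPM in KO replicates 1 to 3, against 25.9, 26 and 25.8 TPM in WT replicates 1 to 3, or 75.2% of WT by the means.

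Wdr34 (chromosome 2, 30031551 to 30048879, minus strand) encodes an intermediate chain of dynein-2, the motor that returns cargo along cilia. It was at 46.2, 29.1 and 32.6 TPM in KO replicates 1 to 3, against 59.3, 64.7 and 63.2 TPM in WT replicates 1 to 3. KO replicate 1 lay far above the other KO libraries, and KO cells averaged 36.0 ± 9.03 TPM, 57.6% of the 62.4 ± 2.79 TPM in WT cells (SD, n = 3 each). Genes of its partner subunits were picked after their values were seen, and their levels varied widely. Wdr60 was scarce, at 1.87 ± 0.21 TPM in KO cells and 1.40 ± 0.20 TPM in WT cells, and was not called (limma adjusted p = 0.13). The heavy chain gene Dync2h1 was scarce too and called higher, at 2.6 ± 0.30 TPM in KO cells and 1.67 ± 0.06 TPM in WT cells (limma adjusted p = 0.029). Dync2li1 was more abundant, at 22.6 ± 7.32 TPM in KO cells and 10.8 ± 5.77 TPM in WT cells (limma adjusted p = 0.096). So was Tctex1d2, at 45.5 ± 1.39 TPM in KO cells and 43.0 ± 1.86 TPM in WT cells (limma adjusted p = 0.31, SD, n = 3 each throughout). Zxdb (chromosome X, 94724569 to 94730191, plus strand) encodes a zinc finger protein whose human relatives act on MHC class II genes. It was at 16.6, 13.2 and 13.8 TPM in KO replicates 1 to 3, against 27, 24.2 and 21.6 TPM in WT replicates 1 to 3, and its KO mean was 59.9% of the WT mean, the median of the 17 genes.

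Another 4 members are not described by role. Gm32131 (chromosome 9, 48418132 to 48420816, minus strand), a long noncoding RNA, was at 21.9, 13.3 and 12.9 TPM in KO replicates 1 to 3, against 31.5, 32.4 and 34.8 TPM in WT replicates 1 to 3. Its KO mean was 48.7% of WT over all libraries and 39.0% without replicate 1 of either group. The long noncoding RNA 9930014A18Rik (chromosome 15, 60822965 to 60831400) was at 16.4, 12.2 and 12.9 TPM in KO replicates 1 to 3, against 21.8, 28.5 and 24.5 TPM in WT replicates 1 to 3. It overlaps the gene listed as Fam84b, which was called lower as well (18.9 ± 2.64 TPM in KO cells and 32.2 ± 5.88 TPM in WT cells, SD, n = 3 each; limma adjusted p = 0.029), so their reads may not be separated. The transcribed pseudogene B630019K06Rik (chromosome X, 8892353 to 8894964), at 10.2, 6.9 and 7.0 TPM in KO replicates 1 to 3, against 15.5, 13.6 and 13.2 TPM in WT replicates 1 to 3, is uncertain in the same way, since a pseudogene can share reads with its parent gene. LOC102632778 was at 6.7, 6.6 and 6.4 TPM in KO replicates 1 to 3, against 13.8, 9.1 and 8.7 TPM in WT replicates 1 to 3. WT replicate 1 was 1.55 times the mean of the other WT libraries, and with replicates 2 and 3 of each group the KO mean was 73.0% of WT, against 62.3% over all libraries.

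By library, the fall was smallest in KO replicate 1 for all 17 genes. The median gene stood at 70.9% of its WT mean in KO replicate 1, 54.1% in KO replicate 2 and 56.1% in KO replicate 3, while the median over the 8011 expressed genes was 98.2%, 95.9% and 93.9% in the same libraries. In KO replicate 1 the fall ran between 20.5% for Cyp20a1 and 45.9% for F2rl2. In KO replicate 2 it ran between 25.5% for Cyp20a1 and 59.7% for Cd244, and in KO replicate 3 between 28.6% for Cyp20a1 and 61.3% for Cd244. KO replicate 2 was the lowest library for 12 genes and KO replicate 3 for 5, and the gap between these libraries was at most a few TPM in every gene except Noc2l. KO replicate 1 was also the highest KO library for 55.7% of all expressed genes and for 89.9% of the 2215 expressed genes whose KO values all lay below their WT values.

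**Figure D2:**
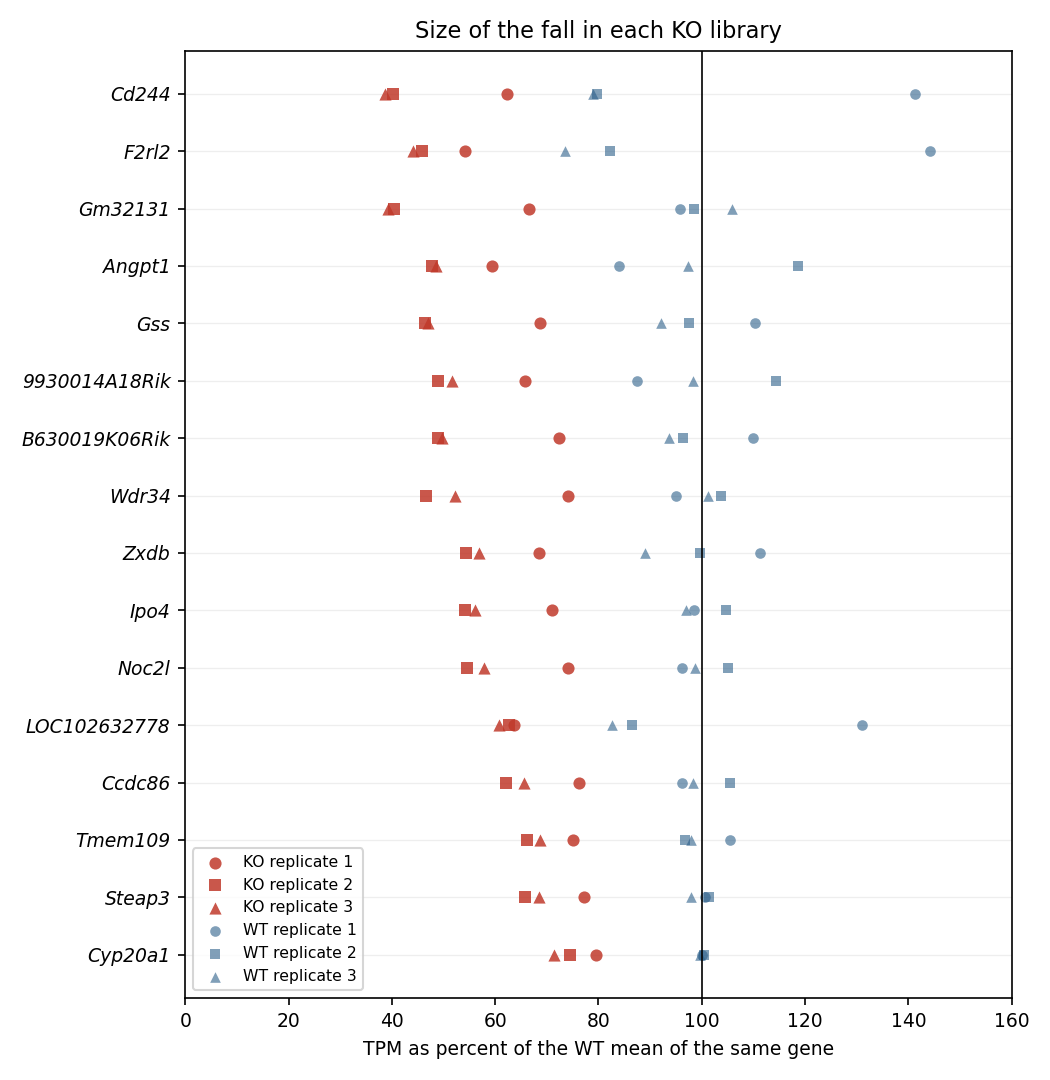
TPM as a percent of the same gene's WT mean (horizontal) for 16 of the 17 genes (rows, ordered by KO mean over WT mean) in each KO library (red) and each WT library (blue), with a line at 100%. KO replicate 1 (circles) has the smallest fall in all 16 rows, and KO replicates 2 and 3 lie close together, down to 38.7% of WT for Cd244.

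Because the rule asks every KO library to be low, the library with the smallest falls decided which genes passed. Without KO replicate 1 the same rule finds 365 genes in place of 17, and without WT replicate 1, 2 or 3 it finds 69, 27 or 31. By size, 3 of the 17 (Cd244, F2rl2 and Gm32131) had a KO mean at or under 50% of WT and 14 lay above it, with the median at 59.9% and the top at 75.2%; over the expressed genes the median was 96.0%. The 17 were less abundant than the expressed genes at large, with a median WT mean of 24.9 TPM, against 41.7 TPM. Just inside the threshold, the highest KO value was 79.0% of the lowest WT value for Cd244, 79.2% for Ccdc86 and 79.8% for Cyp20a1. Just outside it were Bag2, a co-chaperone gene, at 80.4%, Chchd4, a mitochondrial import gene, at 80.4%, and Ppan, a ribosome assembly gene, at 80.5%. A further 322 expressed genes lay between 80% and 90%, so the 17 are the end of a continuous distribution.

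**Figure D3:**
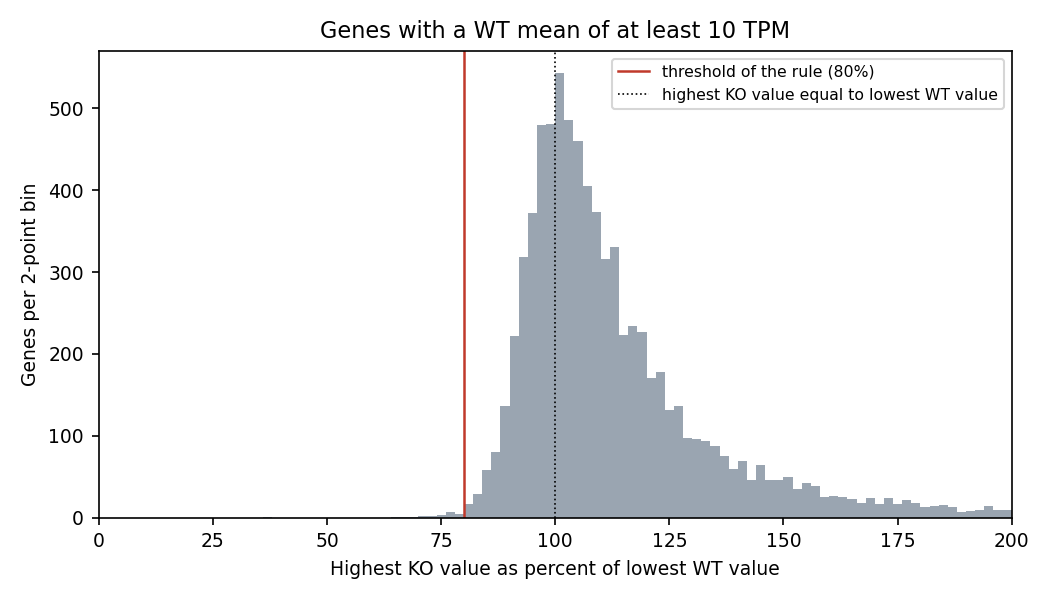
Number of genes per bin of 2 percentage points (vertical) by the highest KO value as a percent of the lowest WT value (horizontal), for the genes with a WT mean of at least 10 TPM; 277 of the 8011 lie outside the axis. Of the 23 genes at or under the 80% line, Chaf1b lies apart at 36.4%. The others are the thin left tail of a single hump whose median is 107%, and no gap separates them from the 322 genes between 80% and 90%.

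No overlap of the groups was itself common here: 27.6% of the expressed genes had all KO values below all WT values and 15.1% had all above. In limma on log2(TPM + 1), fitted over the 13575 genes that reached 1 TPM in 3 or more libraries, 16 of the 17 genes were called lower at an adjusted p under 0.05, where 6.11% of all tested genes were called lower and 12.9% higher. The exception was LOC102632778. Among the 8011 expressed genes 770 were called lower and 556 higher. Without KO replicate 2, KO replicate 3, WT replicate 2 or WT replicate 3 limma called 0 of the 17, all of which had an unadjusted p under 0.05 in each of those fits. The call uses the contrast that chose the genes, and nothing is read from it.

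Libraries that the rule had not seen gave values that did not enter that choice, but they were not all independent of it. KO replicates 2 and 3 correlated at 0.998, as did WT replicates 2 and 3, so holding out 1 of either pair left a near copy in the choice. The labels do not say whether replicates were separate cultures. The rule was applied to 2 KO and 2 WT libraries and the genes so chosen were read in the held-out pair, for all 9 pairs. With KO replicate 2 or 3 held out, 27 to 71 genes were chosen, and between 69.0% and 92.6% of them had a held-out KO value at most 80% of the held-out WT value, against 13.7% to 17.7% of the 7966 to 8022 genes that averaged 10 TPM or more over the 2 WT libraries kept. The median held-out KO value of the chosen genes was between 56.1% and 75.2% of the held-out WT value. With KO replicate 1 held out, 427 to 703 genes were chosen, and only 12.9% to 21.8% reached that size in KO replicate 1, against 2.02% to 6.96% of the genes expressed in the WT libraries kept. Their median KO value was between 86.4% and 92.2% of the held-out WT value, and 77.2% to 95.8% of them lay below it. The genes differ between the pairs and are not replicates, so no p is given.

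**Figure D4:**
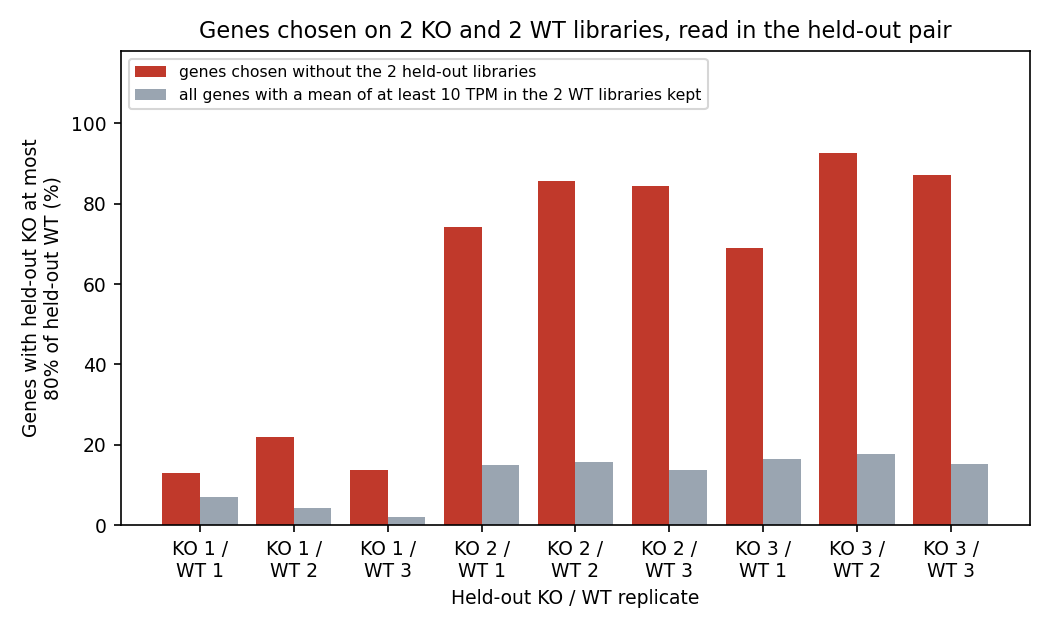
Share of genes (percent, vertical) whose held-out KO value was at most 80% of the held-out WT value, for the genes chosen on the other 4 libraries (red) and for all genes that averaged 10 TPM or more over the 2 WT libraries kept (grey), by held-out pair (horizontal). The red bars are between 69.0% and 92.6% where KO replicate 2 or 3 was held out and between 12.9% and 21.8% where KO replicate 1 was, and each stands above its grey bar.

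The pathways of the genes were read through 27 gene lists. Lists and genes were written down with earlier results of these data known, so their counts are a description beside the 6.11% of all tested genes called lower and the 12.9% called higher by limma. Among the 8011 genes with a WT mean of at least 10 TPM the balance differed, with 770 called lower and 556 higher. Some lists were mostly such genes, for ribosome assembly 108 of 113. Ribosome assembly, the list of Noc2l, had 43 of 113 tested genes called lower and 0 higher (85 lower and 0 higher at an unadjusted p under 0.05), with a median log2 fold change of -0.27, against 0.01 over all tested genes. After Noc2l its lowest genes by highest KO over lowest WT value included Ppan (216.9 ± 14.8 TPM in KO cells and 301 ± 19.3 TPM in WT cells) and Gtpbp4, a GTPase of large-subunit assembly (79.1 ± 3.90 TPM in KO cells and 104 ± 6.05 TPM in WT cells, SD, n = 3 each). Nuclear transport, with Ipo4, had 10 of 64 lower and 0 higher (34 and 0 unadjusted; median -0.19), including the pore gene Pom121 at 48.8 ± 2.89 TPM in KO cells and 60.8 ± 2.44 TPM in WT cells (SD, n = 3 each). Widely used MYC target genes, also with Ipo4, had 24 of 60 lower and 0 higher (38 and 1 unadjusted; median -0.28).

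The lists of the surface and secreted proteins, Gss, Wdr34 and Steap3 were mixed in direction. Surface receptors, ligands and adhesion, with Cd244, F2rl2 and Angpt1, had 4 of 68 tested genes lower and 12 higher (median 0.16); the fourth lower gene was the integrin gene Itga6, at 15.2 ± 0.70 TPM in KO cells and 20.9 ± 3.34 TPM in WT cells (SD, n = 3 each). Glutathione and thioredoxin, with Gss, had 4 of 27 lower and 4 higher (median 0.04), and the lower genes included Gsto1, a glutathione transferase gene, at 304 ± 21.7 TPM in KO cells and 360 ± 7.63 TPM in WT cells (SD, n = 3 each). Dynein and intraflagellar transport, with Wdr34, had 3 of 39 lower and 4 higher (median 0.06). Haem synthesis and iron, with Steap3, had 3 of 33 lower and 2 higher (median -0.02), and the cysteine desulfurase gene Nfs1 was at 33.8 ± 2.33 TPM in KO cells and 41.7 ± 0.42 TPM in WT cells (SD, n = 3 each). These limma counts depended on the libraries: over all tested genes 830 were called lower and 1745 higher, but 3, 0, 2 and 1 were called lower and 106, 0, 23 and 14 higher without KO replicate 2, KO replicate 3, WT replicate 2 and WT replicate 3 (1176 lower and 2205 higher at an unadjusted p under 0.05 without KO replicate 3), while 1619 and 1923 were lower without KO replicate 1 and WT replicate 1, and 2927 higher without WT replicate 1. Scaling moved the split as well, to 1614 lower and 1675 higher by median-of-ratios scaling and 1722 lower and 1346 higher by quantile normalization.

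**Figure D5:**
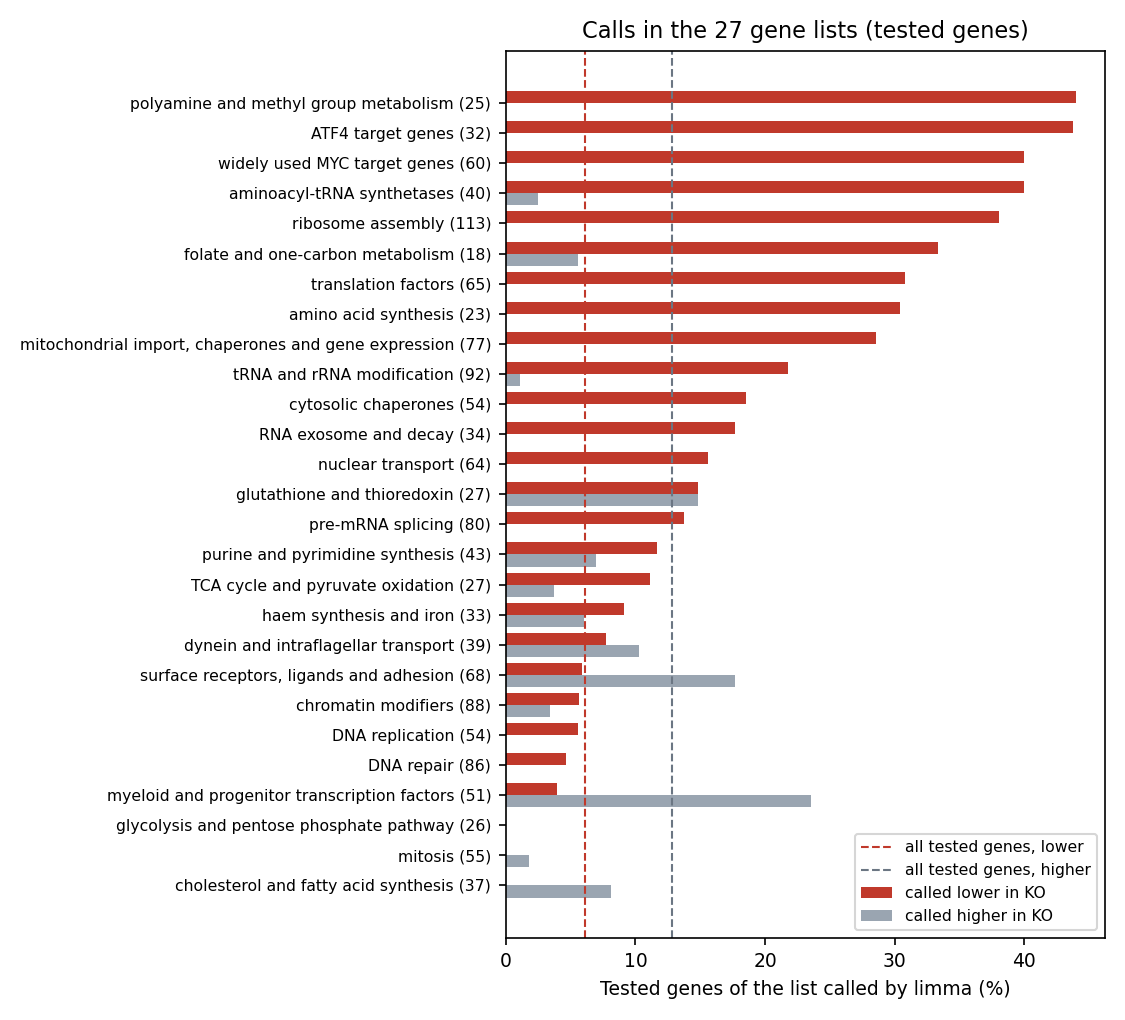
Percent of the tested genes of each of 27 lists (rows; number of tested genes in brackets) that limma called lower (red) or higher (grey) in KO, with dashed lines at 6.11% and 12.9%, the shares over all tested genes. Ribosome assembly, with Noc2l, stands at 38.1% lower and 0% higher, and surface receptors, with Cd244, F2rl2 and Angpt1, at 5.88% lower and 17.6% higher.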

How the data were processed

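Polyadenylated RNA of 3 KO and 3 WT samples was sequenced, per the labels' protocols as stranded libraries, read from both ends for 100 bp, with some 120 M reads stated for each. The authors deposited TPM per gene symbol, with 1 decimal. The submitters' processing notes name the mm10 build, the aligner STAR 2.6.1e, the read counter featureCounts 1.6.2, and for trimming cutadapt 1.9.1 and Trim Galore 0.4.2. The annotation, any use of strand and the step from reads to TPM were not given in the sources used here. TPM keeps no depth, so counting error is unknown, and a rise of abundant transcripts lowers the others. The 6 sums lie between 999924 and 999935. The labels do not say whether replicates were separate cultures, so p-values measure a spread between samples that may be technical only. The column header of WT replicate 1 carries a note of a replacement that the others lack.

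Limma 3.58.1 (R 4.3.3) compared KO with WT on log2(TPM + 1) with genotype as its single term, eBayes with trend, and two-sided p-values adjusted by Benjamini-Hochberg over the 13575 symbols with at least 1 TPM in at least 3 libraries; it was tested on simulated data. Every fold change is on that scale and understates the change of low genes. The members, gene lists and tests were chosen with earlier results of these data known. Named were the 15 members with the smallest KO mean over WT mean, the 10 with the highest WT mean, up to 4 genes per list with the smallest KO maximum over WT minimum, 3 genes on each side of the 0.8 threshold and Chaf1b; predicted and clone-derived symbols were not described by role. Positions and promoters came from RefSeq for GRCm38.p6, in which 33406 symbols and 16 of the 17 members matched. Cd244 was matched through its RefSeq symbol Cd244a. Alternatives were other pseudocounts, filters, scalings, thresholds of the rule, a replicate block and leaving out libraries. No sample was left out of the main comparison. Values of 1 member and 1 marker gene are not reported here.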

Additional observations from a re-analysis of the deposited data

How the results depend on the processing

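The count of genes that met the rule moved with most settings. It found 1 gene at a ratio of 0.7, 294 at 0.9, 10 with a WT mean of at least 20 TPM, 532 by group means, 35 with median-of-ratios scaling, 30 with quantile normalization (16 of them among the 17), 17 to 365 when 1 library was left out, and 703 without KO replicate 1 and WT replicate 1 together, a setting chosen after seeing the data. The median KO mean as a percent of WT was 59.9% and became 48.7% at 0.7, 76.2% at 0.9, 75.5% by group means, 59.8% to 70.0% without 1 library and 72.3% without both. The share of promoters with an E-box was 5.88% in the 250 bases before the start, against 17.6% in 300 bases, where promoters of the expressed genes had 9.08% and 11.1%. The genes called lower by limma (830) numbered 1614 with median-of-ratios scaling, 1722 with quantile normalization, 0 to 1923 without 1 library and 3710 without both; at an unadjusted p under 0.05 there were 1176 in the fit that called 0. Those called higher (1745) numbered 2730 with no filter, 883 with a mean of at least 5 TPM, 1675 with median-of-ratios scaling, 1346 with quantile normalization, 0 to 2927 without 1 library (2205 unadjusted in the fit that called 0, without KO replicate 3) and 3859 without both. Of the members, 0 to 17 were called lower without 1 library: 0 without KO replicate 2, KO replicate 3, WT replicate 2 or WT replicate 3, though all 17 had an unadjusted p under 0.05 in each of these limma fits. The labels do not say whether replicate numbers pair the samples. Deviations of same-numbered samples from their group means correlated at -0.199, -0.145 and -0.164. Replicate 1 stood apart in both groups and weighs on these means, so these values cannot exclude pairing. With the replicate block limma called 33 genes lower, 300 higher and 5 members lower. Over 18 genes (the members and Chaf1b) and the other pseudocounts, scalings and left-out libraries, 216 fold changes were computed. Of these, 209 stayed within 1 SD of the main value (the pooled SD of the gene within groups) and 7 moved by more. All were below 0 and 0 reversed, but every KO value of these genes lies below every WT value. Other pseudocounts and left-out libraries could therefore not reverse a sign, and nothing is read from its staying the same there. Depth cannot be judged, since TPM holds no read counts.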

Other observations

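Several other lists had large shares of genes called lower by limma, where 6.11% of all tested genes were called lower. ATF4 target genes had 14 of 32 tested genes lower, polyamine and methyl group metabolism 11 of 25, aminoacyl-tRNA synthetases 16 of 40, folate and one-carbon metabolism 6 of 18, amino acid synthesis 7 of 23, translation factors 20 of 65, and mitochondrial import, chaperones and gene expression 22 of 77. At most 1 gene of any of these lists was called higher. The shares were smaller among cytosolic chaperones (10 of 54), tRNA and rRNA modification (20 of 92, with 1 higher), RNA exosome and decay (6 of 34), pre-mRNA splicing (11 of 80), purine and pyrimidine synthesis (5 of 43, with 3 higher) and the TCA cycle and pyruvate oxidation (3 of 27, with 1 higher).

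For genes of the cell cycle and genome upkeep the share called lower was near or under the 6.11% of all tested genes. Replication had 5.56% lower (3 of 54) and 0 higher (10 and 0 at an unadjusted p under 0.05 in limma). Repair had 4.65% lower (4 of 86) and 0 higher (15 and 4 unadjusted). Chromatin modifiers had 5.68% lower (5 of 88) and 3 higher (15 and 8 unadjusted). Mitosis had 0 of 55 lower and 1 higher (0 and 6 at an unadjusted p under 0.05 in limma), glycolysis and the pentose phosphate pathway 0 of 26 in either direction (1 lower and 1 higher unadjusted), and cholesterol and fatty acid synthesis 0 of 37 lower and 3 higher (3 and 4 unadjusted). Myeloid and progenitor transcription factors had 2 of 51 lower and 12 higher, where 12.9% of all tested genes were called higher. The lists were written with earlier results of these data known, and over all tested genes the limma calls in both directions numbered 0 without KO replicate 3 (1176 lower and 2205 higher at an unadjusted p under 0.05).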
